A study of Mus musculus with 7 samples.

Results

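The genes described here are 41 genes of the cell cycle and of DNA replication, out of 20661 autosomal protein-coding genes of the RefSeq annotation of mouse build mm10. They were named as a set by their known roles, with earlier results of these data known. The intervals of the deposited peak lists that lie within 1 kb of either end of each gene were collected. All 41 were found in the annotation. They fall into 24 genes of DNA replication and of the passage from G1 into S phase, and 17 genes of mitosis. An interval of a list, also named a call below, is a stretch where the peak caller found more fragments than in the local background.

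The lists come from CUTAC, an antibody-guided tagmentation assay run without salt that cuts open DNA beside a histone mark, in common monocyte progenitors (cMoPs) sorted from mouse bone marrow. H3K4me2, a mark of promoters and enhancers, was profiled in 2 libraries of the WT form and 2 libraries of the form labelled DE of an enhancer at -165 kb from Zeb2, all in batch 2. H3K4me3, a mark of active promoters, was profiled in 1 WT library of batch 1, and its mark and its batch therefore cannot be told apart. The other 2 of the 7 samples, an IgG library of WT cMoPs and an H3K4me3 library of WT cells labelled MDP, were not analysed here. The labels give tissue, cell type, genotype and batch, and no strain, age, sex or number of animals.

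List length fell from 32354 peaks (WT replicate 1) and 28152 (WT replicate 2) to 21968 (DE replicate 1) and 17079 (DE replicate 2) for H3K4me2, with 6425 for H3K4me3. The lists give no read totals, which leaves the depth unknown, and a missing call does not show that a mark was absent. The header of the file used for DE replicate 1 bears the name of DE replicate 2, while the series record ties it to DE replicate 1, which was followed. Of markers of the cells, Csf1r, Ly6c2, Irf8 and Klf4 of the monocyte lineage were called in all 5 lists. Of 13 markers of B, T, erythroid and mast cells, 0 were called in all 4 H3K4me2 lists, and 10 in none of them. Pax5, Cd3e and Cpa3 were among those without a call. Klf1, an erythroid factor, was called in both DE libraries and in neither WT library, as was S100a8 among 4 granulocyte markers, and Mpo and Elane were called in all 5 lists. The part of such cells in the results was not tested.

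Dividing cells copy their DNA from origins that are licensed in G1, when CDC6 and CDT1 load the ring of MCM2 to MCM7 that later unwinds the DNA. Cyclins D and E with CDK4, CDK6 and CDK2 inactivate RB1 and free the E2F factors, which turn on genes of replication. Genes of mitosis come on later, in G2. They are controlled mainly by the DREAM complex and the MYB-MuvB and FOXM1 factors. These act at CHR elements near the transcription start, often beside CCAAT boxes bound by NF-Y. Committed monocyte progenitors are known as a dividing population.

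The promoters of 7 members are shown because the calls described below lie over them. Mcm2 and Cdkn1b are the 2 members of replication and G1/S, and Aurka and Kif11 the 2 of mitosis, with the strongest calls, by mean place over the H3K4me2 lists, among those called in all 5 lists. Top2a is the member called in WT and not in DE. Mcm6 and Cdk1 were added after the motif matches were seen. Each line gives the 250 bases before the RefSeq transcription start (GRCm38.p6, the mm10 build), 5′ to 3′ in the direction of the gene. Capitals mark matches, on either strand, to words for E2F (TTCCCGC or else TTCGCGC or else TTGCCGC or else TTGGCGC), words for the CHR (TTTGAA or else TTCGAA) and the NF-Y word CCAAT.
Mcm2, chr6:88898781-88899030, minus strand: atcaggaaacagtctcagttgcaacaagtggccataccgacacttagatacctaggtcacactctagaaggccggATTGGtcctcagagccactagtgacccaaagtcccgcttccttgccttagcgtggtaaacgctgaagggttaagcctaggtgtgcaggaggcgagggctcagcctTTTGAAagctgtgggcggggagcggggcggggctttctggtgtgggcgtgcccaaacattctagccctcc
Cdkn1b, chr6:134920151-134920400, plus strand: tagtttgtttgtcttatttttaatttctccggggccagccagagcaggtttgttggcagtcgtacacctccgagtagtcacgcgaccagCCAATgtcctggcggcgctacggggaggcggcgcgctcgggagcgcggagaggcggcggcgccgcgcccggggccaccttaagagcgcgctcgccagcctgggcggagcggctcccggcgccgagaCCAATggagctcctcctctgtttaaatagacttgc
Mcm6, chr1:128359706-128359955, minus strand: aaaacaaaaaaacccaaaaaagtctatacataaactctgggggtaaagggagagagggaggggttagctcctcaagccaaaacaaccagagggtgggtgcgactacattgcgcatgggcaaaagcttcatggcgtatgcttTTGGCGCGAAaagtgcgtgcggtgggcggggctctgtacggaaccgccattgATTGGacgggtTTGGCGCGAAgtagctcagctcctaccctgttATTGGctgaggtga
Aurka, chr2:172370571-172370820, minus strand: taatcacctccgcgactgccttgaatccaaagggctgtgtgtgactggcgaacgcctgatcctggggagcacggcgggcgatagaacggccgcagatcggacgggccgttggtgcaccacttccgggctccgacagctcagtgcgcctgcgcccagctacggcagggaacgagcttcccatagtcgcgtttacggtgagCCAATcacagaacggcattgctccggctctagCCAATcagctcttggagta
Kif11, chr19:37376132-37376381, plus strand: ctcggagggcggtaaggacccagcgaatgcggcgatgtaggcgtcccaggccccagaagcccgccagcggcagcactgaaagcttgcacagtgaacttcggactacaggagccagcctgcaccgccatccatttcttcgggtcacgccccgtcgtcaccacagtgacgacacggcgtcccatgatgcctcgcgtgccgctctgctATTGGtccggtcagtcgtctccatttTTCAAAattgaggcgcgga
Cdk1, chr10:69352913-69353162, minus strand: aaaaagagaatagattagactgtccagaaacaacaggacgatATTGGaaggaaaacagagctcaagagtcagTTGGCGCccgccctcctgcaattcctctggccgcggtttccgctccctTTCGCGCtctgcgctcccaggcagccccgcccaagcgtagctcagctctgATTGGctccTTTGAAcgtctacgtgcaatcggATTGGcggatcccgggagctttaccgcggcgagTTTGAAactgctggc
Top2a, chr11:99024190-99024439, minus strand: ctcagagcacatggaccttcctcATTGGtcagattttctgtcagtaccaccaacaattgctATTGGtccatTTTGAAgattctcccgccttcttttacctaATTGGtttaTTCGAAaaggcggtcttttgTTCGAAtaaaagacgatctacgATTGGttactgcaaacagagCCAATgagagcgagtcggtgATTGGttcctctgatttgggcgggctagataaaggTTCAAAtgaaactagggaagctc

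The motif words differ between these promoters, and within the bases shown the 7 do not divide by class. Mcm2 holds 1 CHR word, which begins 70 bases before the start, 1 CCAAT box and 0 E2F words. Within the bases shown, Cdkn1b and Aurka hold 2 CCAAT boxes each and neither an E2F nor a CHR word. In the longer promoters counted below, which reach past the start, Aurka holds 1 CHR word and Cdkn1b 3 CCAAT boxes. There every mitotic gene shown holds a CHR word, and so does Mcm2 of the other class. Mcm6, a subunit of the replicative helicase, holds 4 E2F matches in 2 overlapping pairs, which begin 109, 106, 46 and 43 bases before the start. Cdk1, the kinase that drives entry into mitosis, holds 2 E2F matches, CHR matches that begin 71 and 15 bases before the start, and 3 CCAAT boxes. Kif11, a kinesin of the spindle, has a CHR word 19 bases and a CCAAT box 45 bases before the start. Top2a, the topoisomerase that untangles chromosomes for mitosis, has the most matches of the 7, with 4 CHR words and 6 CCAAT boxes.

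Counts were then made over all members in the promoter table. It held 34 of the 41 genes, with 37 promoters of 300 bases (250 before to 50 after the start), and lacked Mcm4, Gins2, Ccne2, Ccnd2, Rb1, Ccna2 and Aurkb. E2F words were found in 10 of 22 promoters of replication and G1/S genes (45.5%) and in 3 of 15 of mitotic genes (20%), against 12.2% of all 20084 promoters. CHR words were found in 2 of 22 (9.09%) and 11 of 15 (73.3%), against 17% of all. CCAAT was found in 54.5% and 86.7%, against 38.1%, and at least 2 CCAAT boxes in 27.3% and 60%, against 12.8%. Among the 8147 promoters of genes called in all 4 H3K4me2 lists the shares were 18% for E2F, 13% for CHR and 37.9% for CCAAT. In the members' promoters 5 pairs of E2F matches overlapped each other and 3 E2F matches overlapped a CCAAT box. A match is a run of letters and not a bound site, and these shares are a description with no test.

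**Figure D1:**
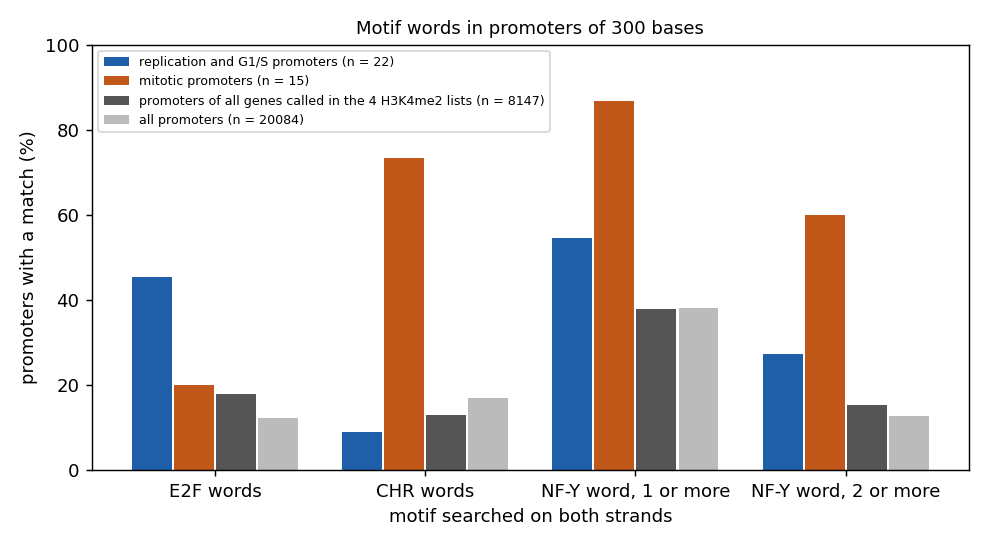
Share of promoters (300 bases, vertical axis in %) with a match to each group of motif words on both strands (horizontal axis), where the NF-Y word is CCAAT. Bars are the 22 promoters of replication and G1/S genes, the 15 of mitotic genes, those of all genes called in the 4 H3K4me2 lists and all promoters, and the CHR bar is at 73.3% for mitotic genes and 9.09% for replication and G1/S genes.

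The calls themselves were frequent at members. Of the 41 members, WT replicate 1 had an interval at 39, WT replicate 2 at 40, DE replicate 1 at 39 and DE replicate 2 at 33. Of all autosomal protein-coding genes, 49.5% and 50.5% had a call in the WT lists and 46.2% and 41.6% in the DE lists. All 4 H3K4me2 lists had a call at 33 members (80.5%), against 39.1% of all genes. Of the 24 replication and G1/S genes 20 were called in all 4 (83.3%), and of the 17 mitotic genes 13 (76.5%). In the single lists the counts were 22, 23, 23 and 20 of 24 and 17, 17, 16 and 13 of 17, with the WT replicates first and the DE replicates after them. The mitotic share was the higher in both WT lists and the lower in both DE lists. This order did not hold with lists of equal length. The mitotic share was then 70.6% in both WT lists, against 83.3% and 87.5% for replication and G1/S genes. In DE it was 94.1% against 91.7% in replicate 1 and 76.5% against 83.3% in replicate 2. Another protein-coding gene has an end within 1 kb of an end of 11 members, such as Prkdc 44 bp from Mcm4 and Tspan31 1 bp from Cdk4, so those calls may belong to either gene. Of the 30 members without such a neighbour, 22 were called in all 4 (73.3%), against 30.2% of all genes without one.

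**Figure D2:**
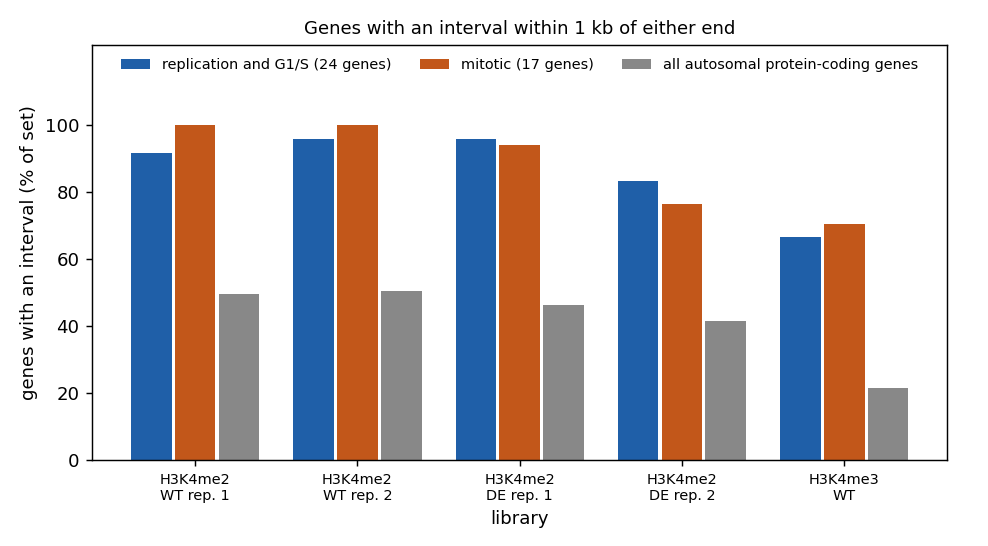
Share of genes with an interval within 1 kb of either end (vertical axis in %) in each library (horizontal axis), for the 24 replication and G1/S genes, the 17 mitotic genes and all 20661 autosomal protein-coding genes. Both classes stand above all genes in the 5 lists, and the bars of both are lowest for H3K4me2 in DE replicate 2, which has the shortest H3K4me2 list, and for H3K4me3.

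To compare strength, each interval was placed in its own list by the −log10 p of its summit, as a percent of the list with 0 the strongest, and the strongest interval at a gene's ends was taken. The 20 replication and G1/S genes called in all 4 H3K4me2 lists had a median mean place of 15.4, and the 13 mitotic genes 31.5. All 8069 genes called in all 4 had a median of 24.6. The gap was smaller among peaks with a −log10 q of 5 or more, with a median of 25.7 over 14 replication and G1/S genes and 29.7 over 6 mitotic genes. With members not called in a list placed last in it, the medians over all 24 and all 17 were 16.2 and 30.1 for WT replicate 1, 13.1 and 36.7 for WT replicate 2, 21.7 and 35.9 for DE replicate 1 and 28.3 and 48.3 for DE replicate 2. As a class, replication and G1/S genes were thus nearer the top in each of the 4 lists. For H3K4me3, where 8 of 24 and 5 of 17 genes had no call, these medians were 67.8 and 64.6, the other way round, whereas among called genes they were 44.5 and 55.4. The H3K4me3 order thus depended on how uncalled genes were treated. The spread within each class was wide, from 2.68 to 74.8 and from 8.71 to 71.0 in mean place, and the classes overlapped over nearly this whole range. No test was made of this difference, since genes are not replicates. The roles within the replication and G1/S class were unlike. Among genes called in all 4 H3K4me2 lists, the median mean place was 13.2 for the 7 G1/S cyclins, kinases and E2F1. It was 25.9 for the MCM helicase, 24.4 for licensing and helicase activation and 41.8 for the clamp and nucleotide supply, against 31.5 for mitotic genes. Of the G1 brakes, only Cdkn1b was called in all 4 (6.3).

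**Figure D3:**
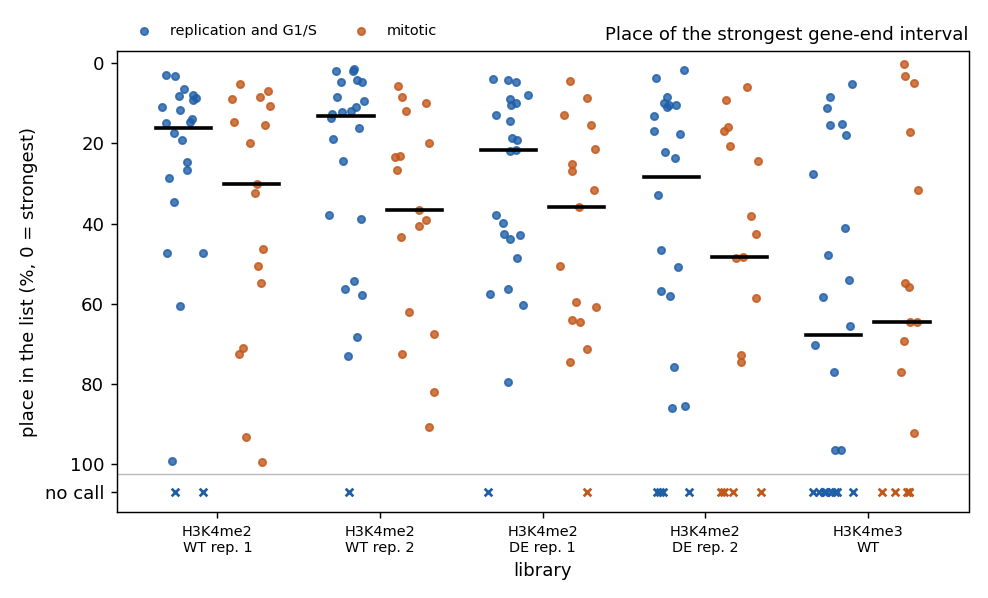
Place of each member's strongest gene-end interval in the list (vertical axis in %, 0 the strongest, drawn at the top) by library (horizontal axis). Points are genes, crosses are members with no call, and bars are medians with uncalled members placed last, which in WT replicate 2 are 13.1 for replication and G1/S genes and 36.7 for mitotic genes.

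The authors' fold of pileup over local background gave the same order of the classes among called members in each list. Among called members its median was 9.24 for replication and G1/S genes and 6.92 for mitotic genes in WT replicate 1, and 8.52 and 6.61 in WT replicate 2. In DE replicates 1 and 2 it was 6.86 and 5.38, and 5.51 and 4.92. For H3K4me3 it was 5.67 and 5.21. All called genes had medians of 7.82 and 8.44 in WT and 6.15 and 5.59 in DE. This fold and the −log10 p are the caller's own values within a library, and the differences between libraries are no measure of change.

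The MCM helicase genes were called in all 5 lists without exception, 6 of 6, but at very unlike strength. Mcm2 (chromosome 6, 88883474 to 88898780) was the strongest member by mean place over the 4 H3K4me2 lists (2.68), the measure by which genes are ordered below, at places 2.80 and 2.04 in the WT replicates, 4.22 and 1.68 in the DE replicates, with H3K4me3 at 5.25. Its fold was 18.6, 29.6, 17.4, 18.1 and 13.4 in the same order. The DE places lay on both sides of the WT places. Mcm3, another subunit of the same ring, was the weakest of the members called in all 4, at 99.2 and 54.3 in WT, 60.4 and 85.4 in DE, with H3K4me3 at 96.5. Mcm3 and Mcm6 both hold E2F words, whereas the Mcm2 promoter holds none. Mcm6 lay at 15 and 4.12 in WT and 12.8 and 22.2 in DE. Mcm7 (54.7), Mcm5 (32.0) and Mcm4 (19.8) were in between by mean place, and Mcm7 ranged from 43.7 to 60.5 over the 4 lists. The factors that load and start the helicase were called in all 4 H3K4me2 lists too. Cdt1 lay at 17.5 and 12.6 in WT and 21.8 and 9.94 in DE. Cdc6 lay nearer the top in WT (14.0 and 18.8) than in DE (79.4 and 50.7), as did Gins2, a subunit of the GINS complex (10.9 and 10.9 against 42.8 and 32.9). The groups did not overlap for Cdc6 and Gins2, but this was not particular to them. Among members called in all 4 H3K4me2 lists it was also seen at Pcna, Ccne1, Cdk4, E2f1, Ccnd2, Aurkb, Kif11 and Mki67, nearer the top in WT. At Tyms, Ccnd3, Mcm7 and Aurka the groups were likewise apart, nearer the top in DE. The share of all genes with such a separation is not given here, and places in lists of unlike length show no change. Of Cdt1, Cdc6 and Gins2, Cdt1 alone had an H3K4me3 call.

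Genes of nucleotide supply and of the sliding clamp were less alike. Rrm2, the S-phase subunit of ribonucleotide reductase, was the third strongest of its class, at 7.93 and 4.78 in WT, 4.75 and 10.5 in DE, with H3K4me3 at 8.30. Its partner Rrm1 lay at 28.6 and 38.8 in WT and 57.6 in DE replicate 1, had no call in DE replicate 2, and lay near the end of the H3K4me3 list (96.5). The Rrm1 region, 102441642 to 102441866 of chromosome 7, spans the start. Pcna, the clamp that holds polymerases on DNA, lay at 19.1 and 37.8 in WT and 48.6 and 75.7 in DE. Tyms, which makes thymidylate, lay at 47.4 and 56.3 in WT and 39.8 and 23.7 in DE and had no H3K4me3 call. Rrm2 was nearer the top than Rrm1 in every list that called both.

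Of the 8 G1/S cyclins, kinases and E2F1, 7 were called in all 4 H3K4me2 lists, and 6 of them had a mean place between 7.06 and 15.3. Ccne1, cyclin E1, lay at 6.53 and 1.30 in WT and 9.97 and 10.5 in DE, and had no H3K4me3 call. Ccnd3, cyclin D3, likewise lay at 14.6 and 12 in WT and 3.99 and 8.34 in DE with no H3K4me3 call at its gene ends. Cdk4 (8.60), Ccne2 (13.2), E2f1 (14.3) and Cdk2 (15.3) were called for both marks. Ccnd2, cyclin D2, was weaker, at 34.6 and 12.2 in WT and 56.2 and 85.9 in DE, and lacked an H3K4me3 call. The values of Ccnd2 turn on the 1 kb window, since the interval behind the 12.2 of WT replicate 2 overlaps a stretch called in the other 3 lists, 127150923 to 127151187 of chromosome 6, that lies 1001 bp from the gene end. With a window of 2 kb it lay at 11 and 12.2 in WT and 46.8 and 54.2 in DE. The interval of Ccne2 in DE replicate 1 was 1304 bp wide, the widest at any member.

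Cdk6 was the gene of this group not called in all 4 lists, and this depended on where its start was taken to be. Its gene bound lies 2889 bp from the listed start, at 3343893 of chromosome 5. At the gene bound, calls were found in WT replicate 2 (73.0) and DE replicate 1 (37.8), and none in WT replicate 1 and DE replicate 2. Around the listed start all 5 lists had a call, at 2.53 and 4.71 in WT, 1.99 and 10.7 in DE, with H3K4me3 at 4.71. With listed starts added to the gene ends, 21 of the 24 genes of its class were called in all 4 lists.

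The brakes on G1 were the least alike. Cdkn1b, the gene of the CDK inhibitor p27, was the second strongest of its class, at 3.12 and 9.41 in WT, 8.94 and 3.74 in DE, with H3K4me3 at 11.2. Cdkn1a, the gene of p21, was the only member with no call at a gene end in any of the 5 lists. Of all genes, 46.2% had no H3K4me2 call. The nearest H3K4me2 intervals lay 2667 and 2675 bp from its ends in WT and 2684 and 3886 bp in DE, inside the gene. Within 1 kb of its listed internal start, 29093769 of chromosome 17, calls were found at 5.77 and 37.2 in WT and 72.2 in DE replicate 1, and none in DE replicate 2. The interval behind the 37.2 of WT replicate 2, 29094318 to 29094996, is part of a region that reaches further inside, 29094318 to 29095707. That region was called in all 4 lists, and its best place was 2.79. In DE replicate 2 its interval lay just past the 1 kb window, so the missing call there turns on the window. Rb1, the E2F repressor, was called at 47.4 and 68.3 in WT and 42.5 in DE replicate 1, and not in DE replicate 2 or for H3K4me3.

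Among mitotic genes, the cyclins and kinase of mitotic entry were called in all 4 H3K4me2 lists, 4 of 4. Ccnb1, cyclin B1, lay at 19.9 and 23.1 in WT and 25.1 and 15.8 in DE, so that the genotypes overlapped. Cdk1 lay at 8.83 and 40.7 in WT and 31.7 and 24.3 in DE, and Ccna2, cyclin A2, at 8.40 and 36.7 in WT and 64.0 and 16.9 in DE. For both genes the genotypes overlapped. The intervals of Ccna2 lay 682 to 687 bp from its gene end. Ccnb2, cyclin B2, was among the weakest, at 46.2 and 82.1 in WT and 26.9 and 72.7 in DE, and was the one of the 4 without H3K4me3.

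The mitotic kinases and their partner Birc5, the survivin of the chromosomal passenger complex, were called in all 5 lists, 4 of 4. Aurka, the kinase of spindle poles, was the strongest mitotic gene by mean place (8.71), at 14.6 and 10 in WT, 4.37 and 5.79 in DE, with H3K4me3 at 3.09. Genes with ends close to its own are Cstf1 (241 bp) and Fam210b (441 bp). Aurkb, the kinase of the passenger complex, was weaker, at 50.5 and 39.1 in WT and 59.6 and 58.5 in DE. Plk1, a kinase of mitotic entry and spindle assembly, was the weakest mitotic gene called in all 4, at 93.3 and 67.6 in WT and 74.6 and 48.5 in DE. In DE replicate 2 its strongest interval had its summit 1116 bp inside the gene, in a stretch also called in WT replicate 2 and, just past the 1 kb window, in DE replicate 1.

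The spindle checkpoint was the role with the fewest H3K4me3 calls among mitotic genes, 1 of 4. Cdc20, the activator of the anaphase-promoting complex, had that call near the end of the list (92.1), and lay at 71.1 and 43.4 in WT and 64.4 and 42.6 in DE for H3K4me2. Mad2l1 lay at 30.1 and 26.7 in WT and 21.4 and 74.5 in DE. Bub1 and Bub1b, kinase-fold proteins of the checkpoint, were called in 3 of 4 H3K4me2 lists. Bub1 lay at 10.7 and 23.3 in WT and 50.5 in DE replicate 1, and Bub1b at 72.4 and 62.0 in WT and 35.9 in DE replicate 1. Neither had a call in DE replicate 2, where the nearest intervals were 7576 and 43643 bp from their ends. Their strongest intervals were narrow, 109 to 206 bp for Bub1 and 97 to 125 bp for Bub1b.

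At centromeres and the spindle, Kif11 stood out by its H3K4me3 call, at 0.218 the strongest of all members. For H3K4me2 it lay at 5.25 and 5.64 in WT and 15.4 and 9.08 in DE. Cenpa, the histone H3 variant of centromeres, was weak in the 3 H3K4me2 lists that called it, at 99.4 and 72.4 in WT and 71.2 in DE replicate 1. Cenpe, a centromere motor, lay at 54.9 and 19.8 in WT and 60.7 and 48.3 in DE and had no H3K4me3 call. Mki67, the gene of the proliferation marker Ki-67, was the third strongest mitotic gene, at 7 and 8.38 in WT, 12.8 and 20.7 in DE, with H3K4me3 at 4.95.

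**Figure D4:**
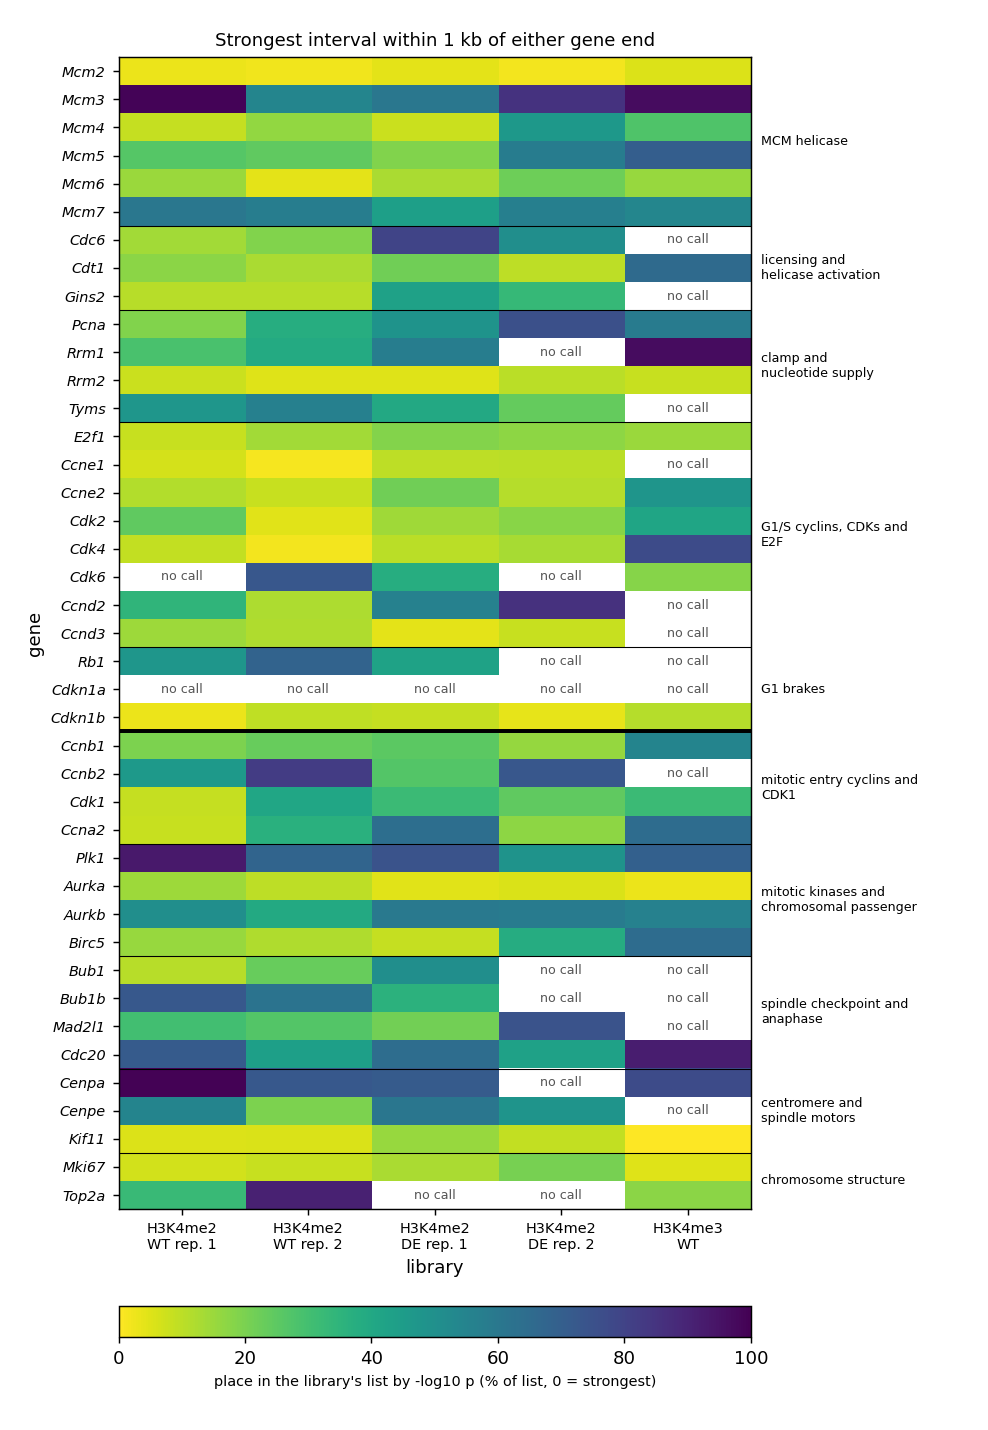
Map of the 41 members (vertical axis, grouped by role, with the heavy line between replication and G1/S above and mitosis below) in the 5 libraries (horizontal axis). Colour gives the place of the strongest gene-end interval in the list in %, 0 the strongest, and white cells marked no call are missing calls, which for H3K4me2 number 2 (WT replicate 1), 1 (WT replicate 2), 2 (DE replicate 1) and 8 (DE replicate 2).

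Between the genotypes, a call in each WT library with none in DE (the WT pattern below) was seen at 1 member, and the reverse (the DE pattern) at 0. These patterns held for 3.03% and 0.223% of all genes, so the members' share (2.44% for WT) was near that of all genes. All genes include 46.2% with no H3K4me2 call, which cannot show a pattern, against 1 of the 41 members. The member with the WT pattern was Top2a. Its WT intervals were short and differed in strength, 94 bp at place 32.4 in replicate 1 and 109 bp at place 90.8 in replicate 2, with folds of 6.19 and 3.09. Both summits lay close to the start, 33 and 21 bp upstream, and the H3K4me3 interval of 158 bp (place 17.2) had its summit 23 bp upstream. In DE the nearest intervals to either end of Top2a were 10119 and 10534 bp away. Of the 250 bases shown above, 54 and 86 were covered in WT, 90 for H3K4me3 and 0 in both DE lists.

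The pattern at Top2a did not hold when the lists were made equally long. With the 17079 strongest peaks of each list, the WT pattern was seen at 0 members and the DE pattern at 1, Plk1, against 1.18% and 1.05% of all genes. The WT lists then held calls at 32 and 33 members (40.0% and 43.6% of all genes), the DE lists at 38 and 33 (42.4% and 41.6%), and all 4 lists at 26 (33.5%). The lower count in DE was that of 1 library, the one with the shortest list. DE replicate 2 lacked calls at Bub1, Bub1b, Cenpa, Rrm1 and Rb1, which the other 3 libraries had. Without it, 38 members were called in the remaining 3 lists, 22 of replication and G1/S and 16 of mitosis, against 43.4% of all genes. Without DE replicate 1, 6 members had the WT pattern in place of 1, against 7.41% of all genes. With a −log10 q of at least 5, the pattern was seen at Ccnd2, Rrm1, Aurkb and Cdc6 and not at Top2a, against 5.45% of all genes. For Ccnd2 this count leaves out the stretch described above, which both DE lists called just outside the window. With 2 libraries per genotype an exact permutation test over libraries cannot go below p = 0.333, so none was made. Whether the replicates are of separate animals is not stated.

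H3K4me3 was called at 28 of the 41 members (68.3%), against 21.6% of all genes. The classes were alike, 16 of 24 (66.7%) and 12 of 17 (70.6%). Among genes called in all 4 H3K4me2 lists, 24 of 33 members had an H3K4me3 call (72.7%), against 51.0% of all such genes. Of the 9 without it, 6 were of replication and G1/S (Tyms, Ccne1, Ccnd2, Ccnd3, Cdc6 and Gins2) and 3 of mitosis (Ccnb2, Mad2l1 and Cenpe). Ccne1 (7.06) and Ccnd3 (9.75) were among the strongest members for H3K4me2 by mean place, and the other 7 lay between 24.4 and 57.0. Ccnd3 had an H3K4me3 call at its second listed start, at place 69.2. With a −log10 q of at least 5, 9 and 5 genes of the classes had an H3K4me3 call, against 13.5% of all genes.

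Around the listed starts, the strongest gene-end interval of a gene had its summit mostly just upstream. Cdk6 and Cdkn1a, whose calls at listed starts lay away from the gene ends, are not counted here. In WT replicate 1 the summit lay upstream in 23 of 32 genes and in WT replicate 2 in 27 of 32. In DE replicates 1 and 2 it lay upstream in 22 of 31 and 19 of 27. The median distance was -58.0 and -62.5 bp in WT and -56.0 and -50.0 bp in DE. For H3K4me3 it was 11 bp downstream in the 13 replication and G1/S genes and -54.0 bp, upstream, in the 10 mitotic genes. Of the intervals at members with a listed start, 0 to 3 per list lay more than 1 kb from it, so nearly all calls at gene ends were at starts. Intervals of replication and G1/S genes at the start had a median width of 301 and 357 bp in WT and those of mitotic genes 206 and 306 bp. In DE the widths were 356 and 356 bp against 328.5 and 267 bp.

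**Figure D5:**
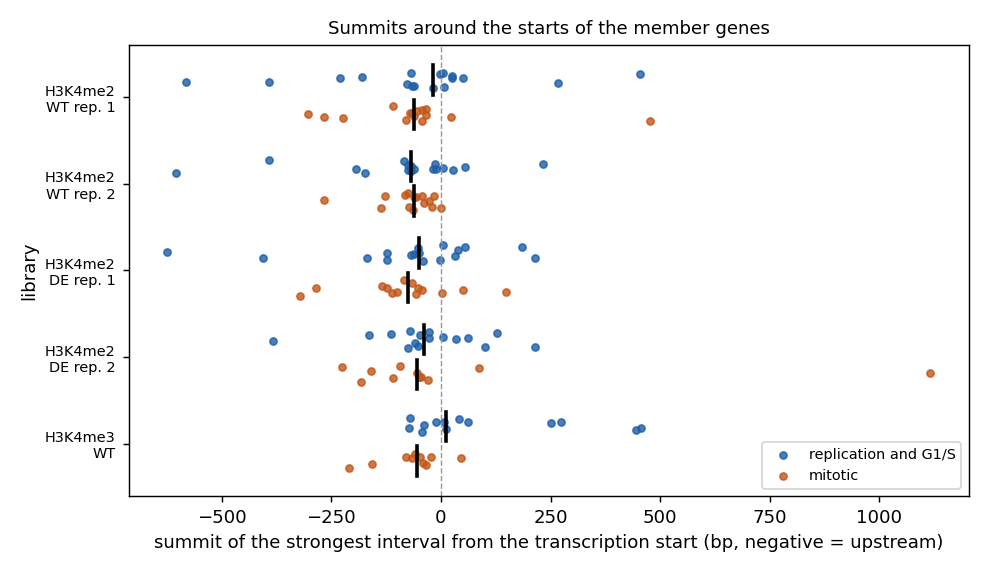
Distance of the summit of each gene's strongest gene-end interval near its start from the RefSeq transcription start (horizontal axis in bp, negative upstream) by library (vertical axis). Points are members with a gene-end interval near a listed start, and bars are medians by class. The dashed line is the start, with medians between -74.0 and -18.0 bp in the H3K4me2 libraries.

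Inside the genes, away from both ends, H3K4me2 regions were found at 15 members, 10 of replication and G1/S (41.7%) and 5 of mitosis (29.4%), against 31.7% of all genes. A region in all 4 lists was found in 9 (37.5%) and 0 genes of the classes, against 10.5% of all genes. Such counts depend on gene length, whose median was 13.9 kb in both classes and 17.5 kb over all genes. The longest members were nevertheless of replication and G1/S, namely Cdk6 (190 kb), Rb1 (133 kb) and Ccnd3 (94.6 kb). The longest mitotic gene was Cenpe (61.0 kb). Ccnd3 held 10 such regions in 94.6 kb, 4 of them called in all 4 lists. Of these 4, the region 47593308 to 47593788 of chromosome 17 spans its second listed start. The strongest, 47595478 to 47595994 of chromosome 17, reached place 2.31, lay 3695 bp from the nearer gene end and carried H3K4me3. Cdk6 held 6 regions in 190 kb, 2 in all 4 lists, and both of these lay around its listed start. Ccnd2 held 6 and Rb1 4, each with 1 in all 4 lists. That of Rb1, 73237846 to 73238053 of chromosome 14, lay 44988 bp from the nearer end and carried H3K4me3. The regions around 3436095 to 3437849 in Cdk6, about 93 to 95 kb inside, were called in 1 or 2 lists each. The mitotic genes Cdk1, Ccna2, Plk1, Mad2l1 and Cenpe held 1 region each. The Plk1 region and 1 of the Ccnd2 regions overlap intervals that were counted at the gene end in other lists.

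Further genes of the same pathways were counted by role. Of 140 such genes on autosomes, 99 were called in all 4 H3K4me2 lists (70.7%, against 39.1% of all genes) and 83 had an H3K4me3 call (59.3%, against 21.6%). For other replication genes these were 36 and 26 of 51, for other G1/S regulators 12 and 8 of 21 (57.1% and 38.1%, the lowest of the 3 lists), and for other mitotic genes 51 and 49 of 68. Their median mean places were 20.7, 21.6 and 25.2. The gap between other replication and other mitotic genes was thus smaller than that between the classes of members. Of other replication, G1/S and mitotic genes, 7 of 51, 5 of 21 and 1 of 68 had no H3K4me2 call, against 46.2% of all genes. These included Orc1, a subunit of the origin recognition complex, Mcm10 and Lig1, a DNA ligase. The CDK inhibitor genes Cdkn2a, Cdkn2b and Cdkn1c were among them too, and all were named after their values were seen. Whether they have calls at starts away from the gene ends, like Cdk6 and Cdkn1a, was not tested. The WT pattern was seen at 7 of the 140 (5.0%, against 3.03% of all genes) and the DE pattern at 0. In list order the first 6 were Topbp1, a replication checkpoint factor, Dctpp1, a nucleotide pyrophosphatase, Tfdp1, the partner of E2F factors, Nek2, a centrosome kinase, Smc4, a condensin subunit, and Ckap5, a microtubule polymerase. With lists of equal length 6 of the 140 had the WT pattern (4.29%, against 1.18% of all genes), Topbp1, Smc4 and Ckap5 among them, and 0 the DE pattern. All genes include 46.2% with no H3K4me2 call, or 50.8% with lists of equal length. Such genes cannot show either pattern and are rarer among the 140, so these pattern shares rest on unlike bases. No test was made of the shares.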

How the data were processed

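The libraries were sequenced as paired ends of 150 bp, per the labels' protocols. MACS2 2.2.9.1, with Bowtie2, Trimmomatic, Picard and SAMtools, and build mm10 are listed in the submitters' processing notes. Neither settings nor control samples are given there. Each list is of 1 library, so peaks were called per sample. The deposited values are a score (10 times the −log10 q), the fold of pileup over background (a ratio), the −log10 of p and q, and the offset of the summit. Peaks reach down to a −log10 q of 1.00 to 1.02.

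Entries with a shared interval made 1 peak, with the highest −log10 p. Peaks of chromosomes 1 to 19, X and Y were placed. A gene was called when at least 1 bp of an interval lay within 1 kb of either end, by the gene bounds that RefSeq gives for GRCm38.p6, or mm10 (without strand). Starts and strands came from the RefSeq promoter table, where it holds the gene. Python 3.11.15, pandas 2.3.3 and numpy 2.4.6 were used, and the calling code was tested on simulated data. Coordinates are counted from 1.

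The members and lists were chosen with earlier results of these data known. Shares are descriptions beside all genes, and no test across genes or libraries was made. All members may be named. Values in each list are given for members not called in all 4 H3K4me2 lists, for the 3 strongest and 3 weakest per class and for others where a role turned on them. Further genes with a genotype pattern are named up to 6 per direction. Alternatives were windows of 500 bp and 2 kb, the summit, the start alone, a −log10 q of at least 5, equal list lengths and leaving out each replicate, and, chosen after seeing the data, gene ends with listed starts added.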

Additional observations from a re-analysis of the deposited data

How the results depend on the processing

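The windows of 500 bp and 2 kb and the use of summits left all counts of called members within 1.5 times. With the start alone, over the 34 members with a listed start, the median place of mitotic genes was 26.4 in place of 31.5. At a −log10 q of at least 5, 6 mitotic genes were called in all 4 lists in place of 13, 4 members had the WT pattern, 9 replication and G1/S genes and 5 mitotic genes had an H3K4me3 call, and the median place of replication and G1/S genes was 25.7, closer to the 29.7 of mitotic genes. With lists of equal length the WT pattern was seen at 0 members, the DE pattern at 1, and the median of replication and G1/S genes was 19.7 in place of 15.4. Shorter lists hold fewer peaks by construction, and the cause of the other shifts was not tested. Leaving out each replicate gave 1 to 6 members of the WT pattern, the highest without DE replicate 1, and a median place of 24.6 to 39.2 for mitotic genes, lowest without DE replicate 1 and highest without WT replicate 1, and 14.7 to 17.7 for replication and G1/S genes. The replication and G1/S median was nearer the top than the mitotic median under all 11 alternatives. No paired analysis was possible because no model was fitted, and no label ties a WT replicate to the DE replicate of the same number. The peak lists give no depth, which limits every missing call.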
